A study of Solanum lycopersicum with 9 samples.

Results

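Pink was compared with turning in ripening tomato fruit (Solanum lycopersicum), using the 2 arrays that the sample labels assign to pink and the 2 they assign to turning, out of 9 arrays in all. The other arrays were 2 of breaker and 3 of red ripe fruit, and they entered the fit so that the 4 stages shared 1 estimate of the spread. Every sample was wild-type pericarp of plants in an open hydroponic greenhouse according to the labels, and the methods give the cultivar as Ailsa Craig, stages judged by skin colour and 2 independent biological replicates per stage. The labels give no fruit age, and nothing in them says whether a sample held 1 fruit or several. RNA was read on Affymetrix TomGene ST 1.1 strips, on which a probe set reads 1 transcript cluster, as log2 signal made by the authors with the RMA method. Of 67795 probe sets 23194 carried 1 gene symbol, which stood for 21320 genes, and those genes are described here.

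Tomato is a climacteric fruit, in which a burst of ethylene at the onset of ripening sets off softening, carotenoid formation, chlorophyll loss and aroma. The colour stages follow that programme from the first break of colour at breaker, over turning and pink, where the red area spreads, to red ripe. The transcription factors NOR, of the NAC family, and FUL1, of the MADS-box family, take part in its control. ACC synthases and ACC oxidases make ethylene, receptors of the ETR family bind it, and EIN2, EIL factors and ethylene response factors pass the signal on to target genes.

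The pink and turning arrays resembled each other more than either resembled the other stages in how their signals were spread. The value above which 1 in 10 probe sets lay was 4.40 to 4.55 at pink and 4.17 to 4.51 at turning, against 5.09 to 5.43 on the other arrays. Between 79.1% and 81.0% of the probe sets had a log2 signal under 3 on these 4 arrays, a level treated here as close to background since the values carry no detection call. Replicates correlated across probe sets with r = 0.957 at pink and 0.939 at turning, and a pink with a turning array with r = 0.922 to 0.942, so that the turning replicates were no more alike than the most similar pink and turning arrays. Between replicates 3.93% of probe sets differed by over 1 on the log2 scale at pink and 6.17% at turning. The weights that limma gives to arrays, which are small where an array departs from its replicates, were 0.57 for pink and 0.40 for turning, against 2.21 for breaker, so standard errors pooled over the 4 stages can be too small for this comparison. The methods also name fruit abscission zones as the tissue in 1 sentence and another extraction kit than the labels. The arrays per stage limit the precision of every value, and p-values measure only the spread between these samples.

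More probe sets were higher than lower at pink. At an adjusted p (Benjamini-Hochberg, over all probe sets) under 0.05, together with a fold change above 2, 759 probe sets were higher at pink than at turning, 1.12% of those tested, and 361 were lower, 0.532%. With 1 gene symbol 527 were higher and 203 lower, so that 72.2% of these calls were rises (61.1% after cyclic loess normalization, with 462 higher and 294 lower), and they stood for 518 and 200 genes. All 1120 called probe sets had both pink arrays on one side of both turning arrays. A call at these thresholds favours such a separation, and the share over all probe sets was not counted. A lack of overlap therefore adds no support to a call. At an unadjusted p under 0.05 there were 4861 higher and 4948 lower, and the median difference over all probe sets was -0.02. Differences over 2 on the log2 scale were found for 129 of the 527 and for 28 of the 203, and differences over 4 for 11 and 2. The turning mean was under 3 for 114 of the 527, and the pink mean for 36 of the 203, so for these the size of the change is at best a lower bound.

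The number of calls depended on the arrays used. With array weights 192 probe sets were higher and 46 lower (80.7% higher), all of them also called without weights, and with only the 4 pink and turning arrays 58 and 20. Without turning replicate 1 there were 613 higher and 894 lower (40.7% higher), without turning replicate 2 1550 and 1195 (56.5% higher), and without red ripe replicate 1 or 2 the number of lower probe sets was 227 or 235. No call turned direction in these settings, but none could. Every called probe set had both pink arrays on one side of both turning arrays. The array weights and the fit to the 4 arrays left the pink and turning means unchanged. With 1 gene symbol 240 of the 527 rises and 76 of the 203 falls were called without each single array in turn, and 33 rises and 6 falls were called in these settings, with array weights and with only the 4 arrays. Of 89 genes past the test that the rule for named genes picked, 54 were past it without each single array, 35 with array weights and 32 with only the 4 arrays. A lower signal in whole tissue can come from fewer cells of a type or from less RNA per cell, which cannot be told apart here.

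The largest rise belonged to LOC101246642, described as tropinone reductase-like protein 16, of a family of dehydrogenases. Its log2 signal was 6.59 and 6.96 on the pink arrays, against 1.1 and 0.89 on the turning arrays, a rise of 5.78 (standard error 0.18, adjusted p = 5.03e-06). It was also at background at breaker and red ripe, with means of 1.11 and 1.14, so the pink arrays stood apart from all 7 others. CYP85A1, the Dwarf gene, encodes the cytochrome P450 that carries out C-6 oxidation in brassinosteroid synthesis. It had 6.48 and 7.16 at pink and 1.64 and 1.89 at turning, and rose by 5.05 (standard error 0.32, adjusted p = 2.08e-04). Its means of 5.85 at breaker and 8.0 at red ripe put turning below every other stage. The gibberellin 20-oxidase 20ox-3, of the enzymes that make the precursors of active gibberellin, had 7.26 and 7.27 at pink and 3.43 and 3.29 at turning, a rise of 3.90 (standard error 0.16, adjusted p = 2.81e-05), and was the only one of 15 listed gibberellin genes past the test.

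Other large rises were in genes of a lipase, a proline-rich protein and a nodulin family protein, and in genes without a description. The lipase gene, LOC101251362, had 7.64 and 7.16 at pink and 2.32 and 2.25 at turning, a rise of 5.11 (adjusted p = 1.56e-05). The 14 kDa proline-rich protein gene, LOC101251407, had 6.79 and 7.19 at pink and 2.26 and 2.09 at turning, a rise of 4.81 (adjusted p = 4.86e-05), and a mean of 1.51 at breaker and 7.56 at red ripe. These 2 genes were near background at breaker and turning and well above it at pink and red ripe. The nodulin family gene LOC101261467 had 8.32 and 7.99 at pink and 4.53 and 4.22 at turning, a rise of 3.78 (adjusted p = 4.86e-05). At breaker and red ripe its means were 10.59 and 9.11, so turning was again the low stage. The 15 largest rises spanned 3.78 to 5.78 (highest adjusted p = 8.69e-04), 13 of these genes carry only a locus number, 9 had a turning mean under 3, and 9 lay lower at turning than at both breaker and red ripe. Among the 15 largest rises with a turning mean of 3 or more, which spanned 3.13 to 4.68, turning lay below both other stages for 14. All these genes were ranked by pink minus turning, which favours a low turning signal, so both counts are a description. Over all probe sets with 1 symbol, 49.5% lay lower at turning than at both breaker and red ripe. LOC101259599, among the rises with a turning mean of 3 or more, had 9.72 and 9.63 at pink and 6.28 and 6.67 at turning.

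**Figure D1:**
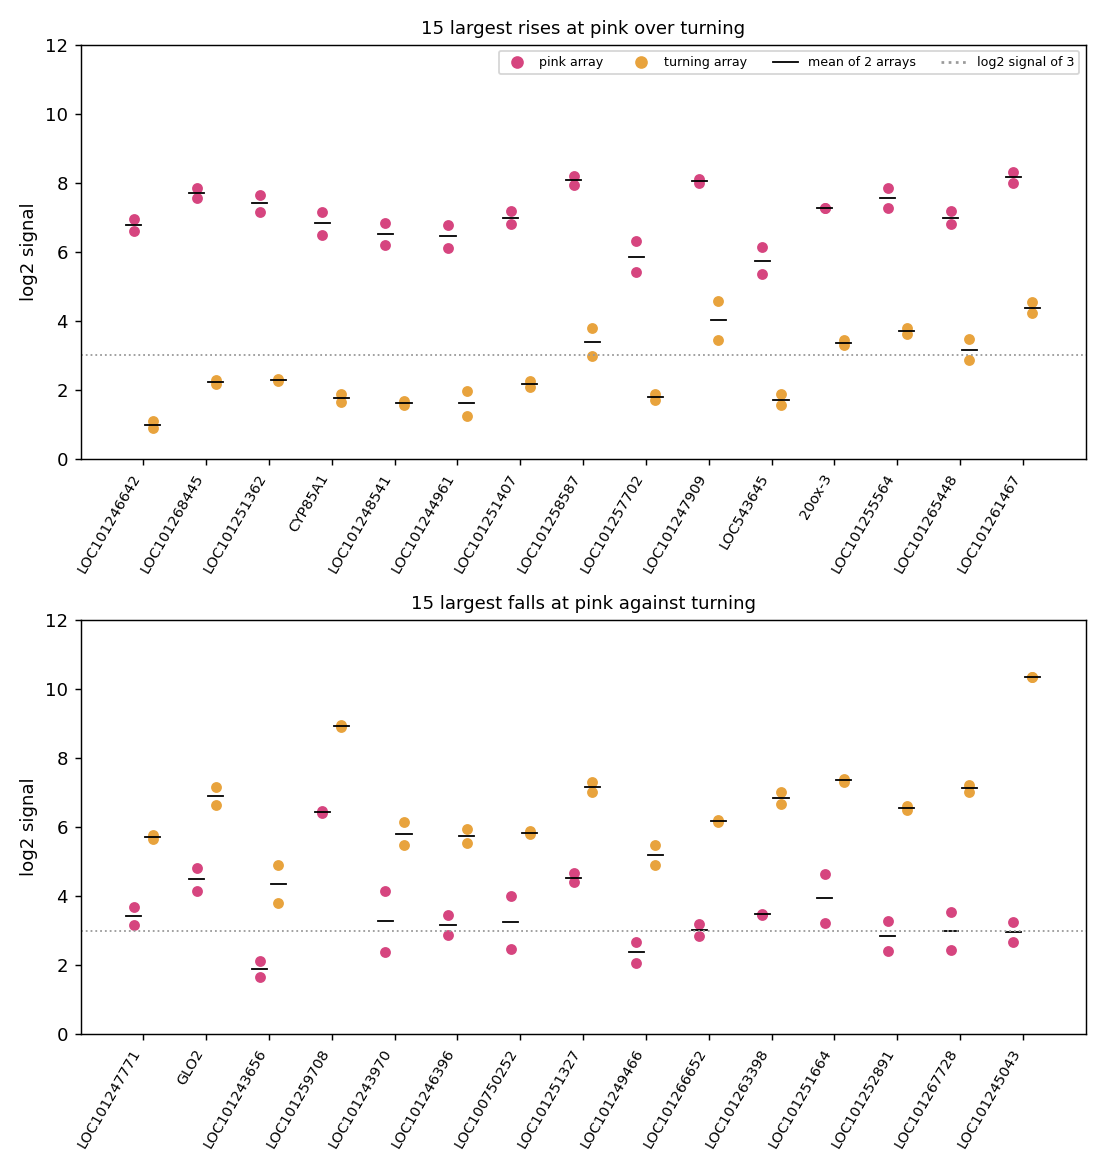
Log2 signal of the 15 largest rises (upper panel) and the 15 largest falls (lower panel) at pink against turning, each point 1 array, pink left of turning, with a line at the mean of 2 arrays and a dotted line at 3. No gene has overlapping arrays, which was a condition of the choice. The fall of LOC101245043, with 2.68 and 3.24 at pink and 10.34 and 10.35 at turning, is the largest change plotted.

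The largest change of any gene with 1 symbol was a fall. LOC101245043, described as agglutinin isolectin I, a sugar-binding lectin, had 3.24 and 2.68 at pink, against 10.34 and 10.35 at turning, and fell by 7.38 (log2 scale, standard error 0.23, adjusted p = 5.03e-06). Its means were 10.57 at breaker and 9.20 at red ripe, so among the 9 arrays it was close to background on the pink arrays alone. LOC101267728 had 3.55 and 2.44 at pink and 7.22 and 7.02 at turning, and LOC101252891 had 2.42 and 3.27 at pink and 6.50 and 6.60 at turning. These 2 genes, with no description, fell by 4.12 and 3.70 (adjusted p = 4.92e-04 and 3.05e-04) and were likewise above 5 at breaker and red ripe. The remaining falls were smaller: the 15 largest spanned 2.30 to 7.38 and their highest adjusted p was 0.0493. In this group the pink replicates were at 2.38 and 4.15 for LOC101243970 and at 4.0 and 2.47 for LOC100750252, and the calls of these 2 genes and of LOC101263398 were lost without 8, 5 and 6 single arrays (adjusted p up to 0.0877, 0.0775 and 0.142).

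Falls with a known product included genes of lipid oxidation, photorespiration and phenolic metabolism. LOC101246396, described as alpha-dioxygenase 1-like, an enzyme that oxygenates fatty acids, had 2.86 and 3.46 at pink and 5.54 and 5.95 at turning, a fall of 2.58 (standard error 0.23, adjusted p = 0.00111). The glycolate oxidase GLO2, a peroxisomal enzyme of photorespiration, had 4.16 and 4.82 at pink and 6.65 and 7.17 at turning, a fall of 2.42 (adjusted p = 0.00669, and 0.0949 with array weights). LOC101243656, a phenylalanine ammonia-lyase, the entry enzyme of phenylpropanoid synthesis, had 2.11 and 1.65 at pink and 4.89 and 3.80 at turning, a fall of 2.46 (adjusted p = 0.0169) that was not past the test without pink replicate 2 (adjusted p = 0.0811). For each of the 3 genes both pink arrays lay below both turning arrays, which was a condition of the choice. The level of LOC101243656 at pink was close to background.

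Genes high at pink alone were few. With a mean of 5 or more at pink and under 3 at each other stage there were 5 of the 527, and with a mean under 3 at pink and 5 or more elsewhere 3 of the 203, the 3 falls above. Beside LOC101246642, they were LOC101248541 (6.19 and 6.82 at pink, 1.56 and 1.69 at turning), LOC101257702 (5.41 and 6.31 at pink, 1.71 and 1.89 at turning), LOC543645 (5.35 and 6.14 at pink, 1.87 and 1.56 at turning) and LOC101252871 (5.97 and 5.69 at pink, 2.07 and 2.25 at turning). The last was picked for this pattern after its values were seen, and the rises of the 4 genes were 4.88, 4.06, 4.03 and 3.67. All 5 had their highest signal off the pink arrays at 2.67 or below.

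**Figure D2:**
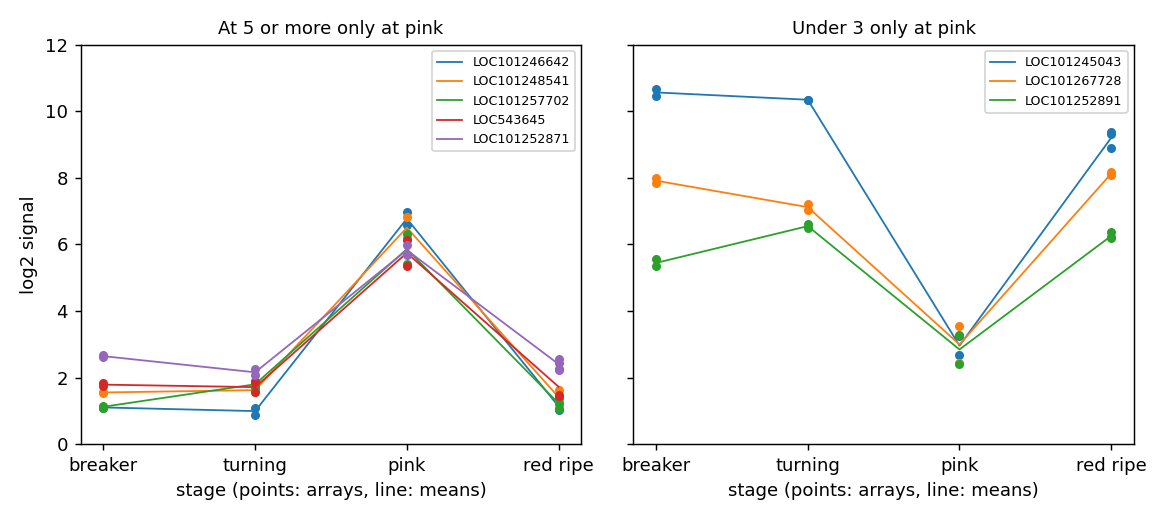
Log2 signal over breaker, turning, pink and red ripe of the 5 genes with a mean of 5 or more only at pink (left) and the 3 genes with a mean under 3 only at pink (right), with points for single arrays and lines through the stage means. The pink arrays lie at 5.35 to 6.96 in the left panel and at 2.42 to 3.55 in the right panel.

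Several ripening regulators were higher at pink than at turning. Of 10 matched genes of this list 4 rose and none fell at an adjusted p under 0.05, with a median difference of 0.66, where over all 21320 genes 656 (3.08%) rose and 290 (1.36%) fell and the median was 0.01. RIN, CNR and TAGL1 had no matched probe set. NOR, required for ripening to start, had 10.73 and 10.82 at pink and 8.61 and 8.73 at turning. It rose by 2.11 (standard error 0.15, adjusted p = 3.78e-04), to a level near its means of 10.88 at breaker and 10.47 at red ripe. NAM1, another NAC factor, had 6.05 and 6.27 at pink and 4.45 and 4.90 at turning, a rise of 1.48 (adjusted p = 0.0260). FUL1 (TDR4 on the array) had 8.28 and 8.60 at pink and 7.47 and 7.38 at turning, a rise of 1.01 (adjusted p = 0.0392). LOC543885, with the synonyms TM5 and LeSEP3 of a SEPALLATA-type MADS-box gene, rose by 0.69 (adjusted p = 0.0438). TM29, of the same class, differed by 0.62 (adjusted p = 0.121). Arrays of the 4 genes that rose did not overlap between the stages, which a call favours and which adds no support. With array weights NOR alone was past the test (adjusted p = 0.00687), and with only the 4 arrays none was. The calls of NAM1, FUL1 and LOC543885 were lost without 5, 7 and 8 single arrays (adjusted p up to 0.101, 0.136 and 0.104), among them both pink arrays, and that of NOR held without each array.

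**Figure D3:**
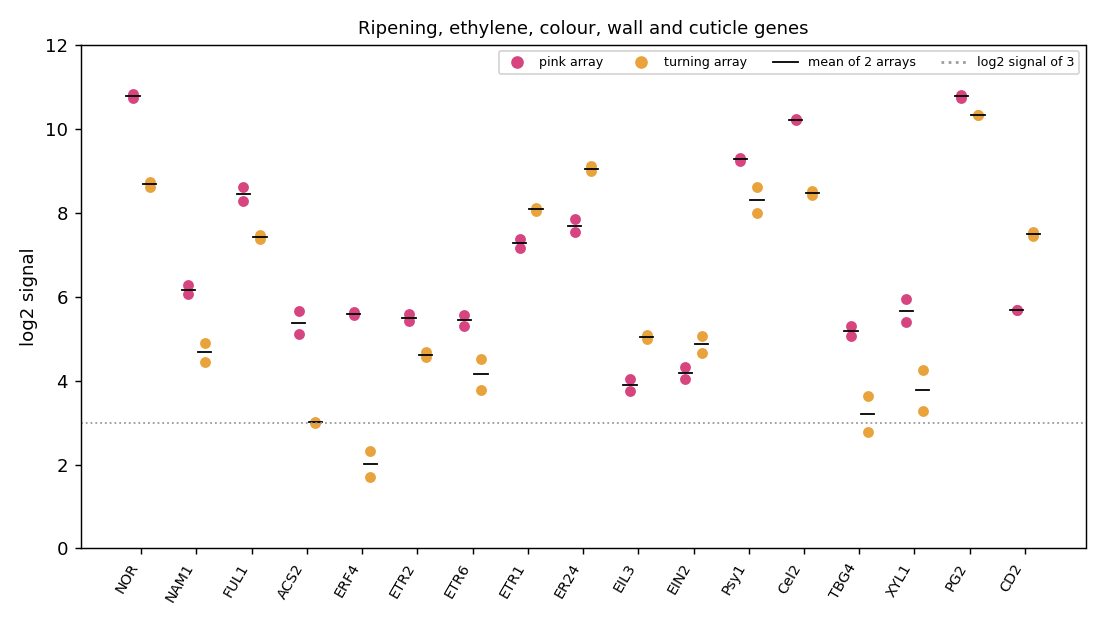
Log2 signal of 17 genes of ripening control, ethylene, colour, cell wall and cuticle, each point 1 array, pink left of turning, with a line at the mean of 2 arrays. NOR, ACS2, ERF4 and Cel2 are higher at pink by 1.75 or more, and ER24 and CD2 are lower by 1.35 and 1.81.

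Ethylene genes moved in both directions. ACS2, the ACC synthase of the ripening burst, had 5.10 and 5.65 at pink and 3.00 and 3.02 at turning, a rise of 2.36 (standard error 0.26, adjusted p = 0.00391). SAM3, an S-adenosylmethionine synthetase that supplies the precursor of ACC, had 4.92 and 4.83 at pink and 5.87 and 6.89 at turning, a fall of 1.50 (adjusted p = 0.0360). These were the only 2 of 11 matched genes of ethylene synthesis past the test, 8 of the 11 had means under 3 at both stages, and ACO1 was near background on all 4 arrays (1.60 and 1.73 at pink, 1.59 and 1.31 at turning). The turning replicates of SAM3 lay apart, and its call was lost without 7 single arrays (adjusted p up to 0.119), whereas that of ACS2 held without each array and was lost with array weights (adjusted p = 0.0956) and with only the 4 arrays (adjusted p = 0.0659).

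Of 16 genes of ethylene perception and signalling 2 rose and 4 fell, with a median of -0.17. The receptor genes parted: ETR6 had 5.57 and 5.29 at pink and 3.78 and 4.52 at turning, a rise of 1.28 (adjusted p = 0.0326), and ETR2 rose by 0.89 (adjusted p = 0.0401), while ETR1 had 7.16 and 7.38 at pink and 8.04 and 8.12 at turning, a fall of 0.81 (adjusted p = 0.0295). ER24, an ethylene-responsive transcriptional coactivator, had 7.84 and 7.54 at pink and 8.98 and 9.10 at turning, and fell by 1.35 (standard error 0.17, adjusted p = 0.00667). Its means were 7.47 at breaker and 7.91 at red ripe, so turning was its high stage on these arrays. In the study's real-time PCR ER24 went the other way over this step, with a rise at turning and a larger one at pink. EIL3, a transcription factor downstream of EIN2, had 3.75 and 4.04 at pink and 5.08 and 4.99 at turning, a fall of 1.14 (adjusted p = 0.0126). EBF2, an F-box protein that targets EIL factors for breakdown, fell by 0.85 (adjusted p = 0.0254). EIN2 itself had 4.32 and 4.03 at pink and 4.65 and 5.07 at turning, a difference of -0.68 that was not past the test (adjusted p = 0.115), but was past it without turning replicate 1 (adjusted p = 0.0485) and after quantile and cyclic loess normalization (adjusted p = 0.0353 after cyclic loess). The calls of ER24 and EIL3 held without each single array. Those of ETR6, ETR2, ETR1 and EBF2 were lost without 8, 7, 6 and 7 of them (adjusted p up to 0.106, 0.129, 0.0831 and 0.0724), and none of the 6 was past the test with array weights.

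ERF4, also named Sl-ERF.B3, had the largest rise of 10 matched ethylene response factors, the transcription factors at the end of the ethylene pathway. It had 5.55 and 5.63 at pink and 1.71 and 2.31 at turning, a rise of 3.58 (standard error 0.35, adjusted p = 0.00200) from a level near background. JERF1 had 7.78 and 8.05 at pink and 6.94 and 7.02 at turning and rose by 0.93 (adjusted p = 0.0169, and 0.0618 without pink replicate 2). None of the other 8 was past the test, and ERF2 and ERF7 differed by -0.33 and 0.47. The call of ERF4 was lost with array weights (adjusted p = 0.0747) and held with only the 4 arrays (adjusted p = 0.0289).

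Of 22 genes of carotenoid and isoprenoid synthesis 2 rose and 1 fell, with a median of 0.08. Psy1, the fruit phytoene synthase and first step of the carotenoid pathway, had 9.30 and 9.23 at pink and 7.99 and 8.60 at turning, a rise of 0.97 (standard error 0.20, adjusted p = 0.0454). ISPE, of the plastid isoprenoid pathway, had 5.76 and 5.92 at pink and 4.21 and 4.96 at turning, a rise of 1.25 (adjusted p = 0.0373), and DXS, the first enzyme of that pathway, had 7.08 and 7.29 at pink and 7.93 and 8.06 at turning, a fall of 0.81 (adjusted p = 0.0299). The desaturases PDS and ZDS, which follow Psy1, differed by -0.23 and 0.27 (adjusted p = 0.532 and 0.569). All 3 calls were close to the threshold and were lost without 8, 8 and 7 single arrays (adjusted p up to 0.116, 0.127 and 0.0842). SGR1, the stay-green gene of chlorophyll breakdown, had 8.23 and 8.36 at pink and 7.27 and 7.20 at turning, a rise of 1.06 (adjusted p = 0.0311) that was lost without 6 single arrays (adjusted p up to 0.107).

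Wall genes that passed the test were all higher at pink, and rises also outnumbered falls over all 21320 genes (3.08% against 1.36%). Of 36 expansins, xyloglucan enzymes and glucanases 5 rose and none fell, with a median of 0.00 and 28 of the 36 under 3 at both stages, and of 15 genes of pectin breakdown 1 rose. Cel2, an endoglucanase of ripening fruit, had 10.21 and 10.22 at pink and 8.51 and 8.41 at turning, a rise of 1.75 (standard error 0.19, adjusted p = 0.00353). Its means were 6.36 at breaker and 10.60 at red ripe, and the stages were thus ordered as in the labels. TBG4 (tEG3 on the array), a beta-galactosidase of fruit softening, had 5.06 and 5.29 at pink and 2.78 and 3.63 at turning, a rise of 1.97 (adjusted p = 0.0109, and 0.0565 without pink replicate 2). XYL1, an alpha-xylosidase, had 5.94 and 5.39 at pink and 3.27 and 4.26 at turning, a rise of 1.9 (adjusted p = 0.0173, and 0.0661 without pink replicate 1). The xyloglucan endotransglucosylase genes BR1 and XTH5 rose by 1.17 and 0.98 (adjusted p = 0.0177 and 0.0434; XTH5 is named to complete the count), the first not past the test without pink replicate 2 (adjusted p = 0.0708). PG2, the main fruit polygalacturonase, had 10.81 and 10.72 at pink and 10.32 and 10.33 at turning. Its difference of 0.44 was not past the test (adjusted p = 0.267). The expansin EXP1 was near background at both stages (1.57 and 1.12 at pink, 1.74 and 1.42 at turning). With array weights neither Cel2 (adjusted p = 0.0956) nor any other gene of either list was past the test.

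Cel1, an endoglucanase known from abscission zones, had 6.07 and 5.76 at pink and 3.14 and 2.95 at turning, a rise of 2.87 (standard error 0.51, adjusted p = 0.0268). Its call was lost without 6 single arrays (adjusted p up to 0.0919) and with array weights (adjusted p = 0.504), and held with only the 4 arrays (adjusted p = 0.0331). The other 4 of 5 abscission zone markers, TAPG2, TAPG4, cel5 and LS, ranged from 1.05 to 2.94 on these arrays and none was past the test. The summed linear signal of the 5 markers was 68.4 to 79.7 at pink and 21.4 to 25.9 at turning, but it includes Cel1 itself, and it was 46.8 to 139 at breaker and 46.2 to 72.9 at red ripe. The part of abscission tissue in this result was not tested.

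Some phenylpropanoid genes rose and some cuticle genes fell. Of 10 matched phenylpropanoid and flavonoid genes 3 rose and none fell, with a median of 0.42. CCR1, a cinnamoyl-CoA reductase at the entry to lignin units, had 7.28 and 7.24 at pink and 4.92 and 4.49 at turning, a rise of 2.55 (standard error 0.23, adjusted p = 0.00132) that also held with array weights (adjusted p = 0.0307). MYB12, an activator of flavonol genes of the peel, had 5.01 and 5.25 at pink and 3.51 and 3.40 at turning, a rise of 1.67 (adjusted p = 0.0138, and 0.0656 without pink replicate 2). CHS1, a chalcone synthase, had 3.96 and 4.20 at pink and 1.86 and 2.87 at turning, a rise of 1.71 (adjusted p = 0.0390) that was lost without 8 single arrays (adjusted p up to 0.137), and its near copy CHS2 differed by -0.14. At red ripe the means of CHS1 and MYB12 were 1.95 and 1.96. The phenylalanine ammonia-lyase gene that fell, described above, was not matched to this list.

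Of 4 cuticle genes 2 fell. CD2, a homeodomain factor needed for cutin deposition, had 5.68 and 5.68 at pink and 7.53 and 7.45 at turning, a fall of 1.81 (standard error 0.14, adjusted p = 7.14e-04, and 0.0106 with array weights). The lipid transfer protein gene ltpg1 had 7.96 and 8.28 at pink and 9.69 and 9.74 at turning, a fall of 1.59 (adjusted p = 0.0106), and a mean of 3.02 at red ripe. Its call was lost with array weights (adjusted p = 0.133) and with only the 4 arrays (adjusted p = 0.126), and that of CD2 with only the 4 arrays (adjusted p = 0.0683). Neither had overlapping arrays, which a call favours and which adds no support. CD2 was higher at turning than at any other stage, with means of 5.63 at breaker and 4.09 at red ripe. Fruit epidermis markers moved in both directions with these genes: of 6, CHS1 and MYB12 rose, CD2 fell and 3 were not past the test. Their summed linear signal was 393 to 426 at pink and 550 to 561 at turning, whereas their mean log2 signal was 4.97 to 5.11 at pink and 4.75 to 4.95 at turning, and the share of peel in the samples was not tested.

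**Figure D4:**
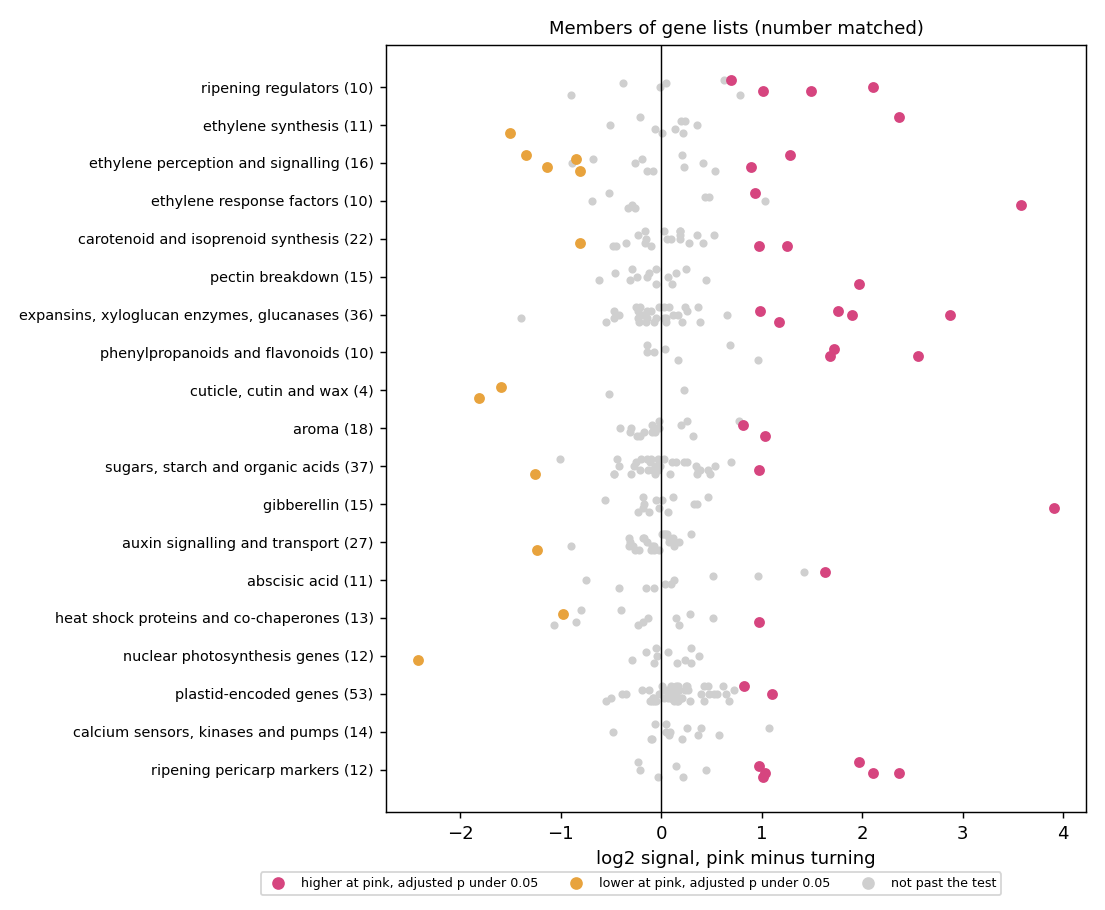
Differences of log2 signal, pink minus turning, for the matched members of 19 gene lists, 1 point per gene, with members past an adjusted p of 0.05 in colour. Of the ripening regulators 7 of 10 lie to the right of 0 and of the cuticle genes 3 of 4 to the left, while most lists centre near 0. Of all 21320 genes, 11030 differences were positive and 10209 negative.

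Aroma genes changed in a few members. Of 18 matched genes 2 rose: loxC, the lipoxygenase that starts the formation of green leaf volatiles in fruit, had 9.37 and 9.19 at pink and 8.34 and 8.15 at turning, a rise of 1.03 (standard error 0.16, adjusted p = 0.0143, and 0.133 with array weights), and AAT, an alcohol acyltransferase of ester formation, rose by 0.81 (adjusted p = 0.0475, lost without 7 single arrays with adjusted p up to 0.124). The alcohol dehydrogenase ADH2 differed by -0.21 at a high level on all 4 arrays. Of 37 genes of sugars, starch and organic acids 1 rose, GABA-TP1, a transaminase that breaks down GABA (7.45 and 7.19 at pink, 6.41 and 6.28 at turning, 0.97, adjusted p = 0.0229, lost without 3 single arrays with adjusted p up to 0.0709). LOC543961, a sucrose synthase by its synonyms, had 2.92 and 3.20 at pink and 4.22 and 4.41 at turning, a fall of 1.25 (adjusted p = 0.0152, and 0.0556 without pink replicate 1), against means of 7.03 at breaker and 8.96 at red ripe. Over all 21320 genes 3.08% rose and 1.36% fell, against 2.70% in each direction for the 37 genes.

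Few genes of other hormones were past the test, and few of all 21320 genes were (3.08% rose and 1.36% fell). The counts that follow are a description. SRK2C, a protein kinase of abscisic acid signalling, had 7.41 and 7.51 at pink and 6.12 and 5.55 at turning, a rise of 1.62 (standard error 0.19, adjusted p = 0.00489, and 0.0241 with array weights), and was alone among 11 abscisic acid genes. The auxin response factor ARF3 had 3.86 and 3.80 at pink and 5.29 and 4.85 at turning, a fall of 1.24 (adjusted p = 0.0167, and 0.0670 without pink replicate 2), and was alone among 27 auxin genes. None of 14 cytokinin, 9 jasmonate, 16 MAP kinase, 24 antioxidant, 16 cell cycle and 5 WRKY genes was past the test. TCP24, of the TCP factors that act in organ growth, had 4.06 and 4.09 at pink and 2.57 and 2.98 at turning, a rise of 1.30 (adjusted p = 0.0119, and 0.0505 without pink replicate 2), the only one of 21. Averaged over all probe sets of the gene the difference of TCP24 was 0.73 and not past the test. All 7 genes of 14-3-3 proteins, which bind phosphorylated partners, had positive differences with a median of 0.38, none past the test. Over all 21320 genes 11030 had a positive difference. Among genes outside the lists, chosen after their values were seen, MYC2, a transcription factor of jasmonate responses, had 5.11 and 5.38 at pink and 3.59 and 4.0 at turning, and BI-1, an inhibitor of cell death, had 6.95 and 6.36 at pink and 8.42 and 8.25 at turning.

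Heat shock and plastid genes showed small differences. Of 13 heat shock genes Hsp90-1, a cytosolic chaperone, had 8.10 and 8.08 at pink and 9.09 and 9.05 at turning, a fall of 0.98 (standard error 0.13, adjusted p = 0.00953) that was lost with array weights (adjusted p = 0.118) and with only the 4 arrays (adjusted p = 0.266). HSP21, a small chaperone of the plastid, had 10.23 and 9.96 at pink and 9.07 and 9.18 at turning, a rise of 0.97 (adjusted p = 0.0174, and 0.0545 without pink replicate 1), and its breaker and red ripe means were 6.38 and 7.28. Of 53 plastid-encoded genes atpE (9.66 and 9.82 at pink, 8.80 and 8.48 at turning) and rpl22 (10.16 and 10.32 at pink, 9.49 and 9.35 at turning) rose, by 1.1 and 0.82 (adjusted p = 0.0120 and 0.0281). The first was not past the test without pink replicate 2 (adjusted p = 0.0516), the second without 5 single arrays (adjusted p up to 0.0924). Of the 53, 40 had a positive and 13 a negative difference, with a median of 0.14. Some share all their values with another, so the 53 are not independent. Over all 21320 genes 11030 differences were positive and 10209 negative. The share of the 53 that rose past the test, 3.77%, was near that of all genes, of which 3.08% rose and 1.36% fell. Of 12 nuclear photosynthesis genes GLO2 alone was past the test.

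The 6 calcium genes that the study placed in 1 module, M40, are named here because of that choice, which was made on these arrays. LOC101055516, a calmodulin-like protein, had 7.05 and 7.39 at pink and 4.78 and 5.78 at turning, a rise of 1.94 (standard error 0.35, adjusted p = 0.0292). LOC101258032, a CBL-interacting protein kinase, had 5.09 and 5.76 at pink and 3.87 and 4.11 at turning, a rise of 1.43 (adjusted p = 0.0150). Calmodulins and CBL proteins bind calcium and pass its signal to kinases. LOC101256200, a calcium-dependent protein kinase, differed by 1.30, with turning replicates at 3.42 and 5.15 (adjusted p = 0.212). Without turning replicate 2 it was past the test (a difference of 2.17, adjusted p = 0.00207), and without turning replicate 1 it differed by 0.44. The other 3 differed by 0.98, 0.69 and 0.40 (adjusted p = 0.0963, 0.164 and 0.587), of which the first, LOC101256817, was past the test without turning replicate 2 (adjusted p = 0.0391) and after quantile normalization (adjusted p = 0.0371). All 6 had a lower mean at turning than at breaker, but the study built its modules from fold changes against breaker on these arrays. The call of LOC101055516 was lost without 7 single arrays (adjusted p up to 0.116), neither call held with array weights (adjusted p = 0.151 and 0.0879), and none of 14 other calcium sensors, kinases and pumps was past the test.

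Levels at breaker and red ripe show where the called genes stood in the series. The median log2 signal of the 527 probe sets higher at pink was 5.89 in breaker, 4.01 in turning, 5.88 in pink and 6.31 in red ripe fruit. Per array it was 5.79 and 5.92 at pink and 3.87 and 4.18 at turning, a separation fixed by the choice of these probe sets. Of the 527, 466 (88.4%) lay lower at turning than at both breaker and red ripe, where 49.5% of all probe sets with 1 symbol did, and 329 (62.4%) by over 1 on the log2 scale below each other stage. At pink 182 lay above both breaker and red ripe and 211 below both, and 51 (9.68%) lay over 1 above each other stage. The turning arrays enter both the choice of these genes and this count, so the shares are a description. The upper end of all signals was also lower on the turning arrays (4.17 to 4.51) than on breaker and red ripe arrays (5.09 to 5.43), by the measure given above. These shares were not recomputed after quantile or cyclic loess normalization, and the part of this array-wide difference in them was not tested.

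The 203 probe sets lower at pink had medians of 6.04 in breaker, 5.96 in turning, 4.46 in pink and 6.03 in red ripe fruit. Per array the median was 4.42 and 4.56 at pink and 5.85 and 6.15 at turning. Of these, 154 (75.9%) lay lower at pink than at both breaker and red ripe, against 48.4% of all with 1 symbol, 106 (52.2%) by over 1 below each other stage, and 84 (41.4%) had turning above both. CD2 and ER24 were among those with turning above both. The pink and turning arrays enter both the choice of these probe sets and the counts, so these shares are a description too. The upper end of all signals was likewise lower on the pink arrays than on breaker and red ripe arrays, and its part in these shares was not tested.

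**Figure D5:**
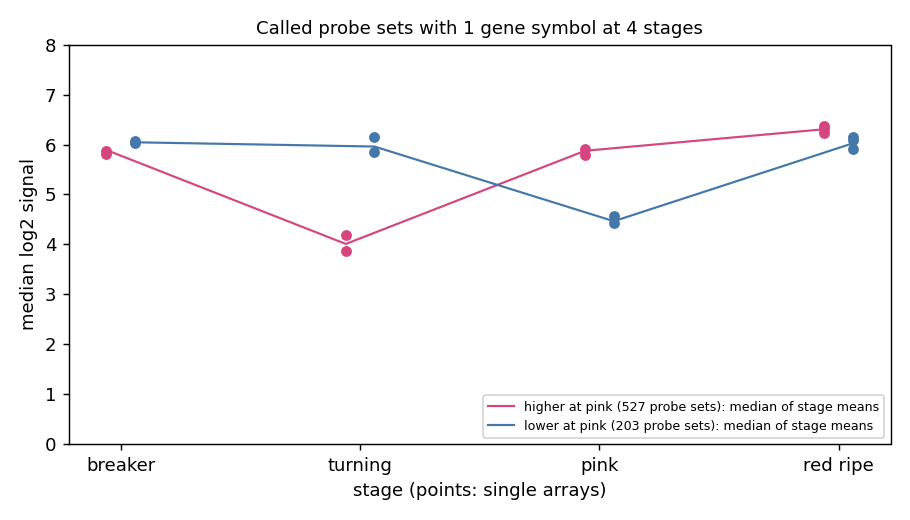
Median log2 signal at breaker, turning, pink and red ripe of the 527 probe sets called higher and the 203 called lower at pink than at turning, with points for single arrays and lines for the median of the stage means. The first set dips at turning, to 4.01, and the second at pink, to 4.46.

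Red ripe against breaker, which shares no array with pink against turning, gave 821 probe sets higher and 654 lower with 1 symbol, 3.54% and 2.82% of those tested. The comparisons come from 1 fit and share its pooled spread. Higher in both were 87, which is 16.5% of those higher at pink and 10.6% of those higher at red ripe, and lower in both were 36 (17.7% and 5.50%). Higher at pink and lower at red ripe were 31 (5.88% and 4.74%), and lower at pink and higher at red ripe were 14 (6.90% and 1.71%). Among the genes called at pink, the shares with the opposite direction (5.88% and 6.90%) thus also lay above the shares of all probe sets. Cel2 and XYL1 were higher in both. The number higher in both was 55 without breaker replicate 2 or red ripe replicate 1 and 35 with array weights, and the number lower in both was 8 with array weights.

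Some called genes lay close together in RefSeq's tomato annotation (assembly SLM_r2.1), used here for gene order alone. Of 487 placed genes that were higher 68 (14%) lay within 3 gene positions of another higher gene, where 10.7% of all 20439 placed genes did. Of 197 that were lower 12 (6.09%) lay as close to another lower gene, against 4.76% of all. These shares were near those of all placed genes, and nothing is read from them. The groups that follow are picked examples only, and only neighbours called in the same direction were looked for. On chromosome 2 LOC101268734, PDH, LOC101268445 and LOC101267858 were higher by 2.40, 3.07, 5.48 and 2.43. On chromosome 6 LOC101246642, with the largest rise, lay among LOC101247232 and LOC101246067, which were higher by 1.98 and 1.50, and on chromosome 3 LOC101245043, with the largest fall, lay near LOC101249342, which was lower by 1.56. The study's supplement lists a chitin-binding lectin, with a locus number close to that of LOC101245043 and no gene symbol. It moved the other way, with a small rise over breaker at turning and a large one at pink. LOC101268445 had 7.55 and 7.86 at pink and 2.16 and 2.29 at turning, and means of 4.55 at breaker and 1.47 at red ripe. Whether probes of neighbouring related genes share transcripts was not tested.

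Levels of tissue marker genes were also read. A change between stages of the same labelled tissue cannot test what the tissue was. Of 12 markers of ripening pericarp 6 rose (NOR, ACS2, TBG4, loxC, FUL1 and Psy1) and none fell, with a median of 0.70. These 6 are the genes already described above under other lists. The mean log2 signal of the 12 markers was 6.70 to 6.84 at pink and 5.94 to 5.98 at turning. It was higher at breaker (7.13 to 7.26) and at red ripe (7.73 to 7.81). ACO1, EXP1 and the histidine decarboxylase hdc had means under 3 at both pink and turning. The seed marker ABI3 was at 1.50 to 1.77 at pink and 1.56 to 1.64 at turning, near background. The phloem marker LeSUT1, a sucrose transporter, was at 3.66 to 3.96 at pink and 3.98 to 4.07 at turning. It was at 6.23 to 7.21 at breaker and 5.41 to 5.82 at red ripe.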

How the data were processed

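Labels assign 9 arrays of total RNA to 4 stages. The authors deposited log2 signals per transcript cluster, made with RMA at gene level in Affymetrix Expression Console. Transcriptome Analysis Console 2.0 is also listed in the submitters' processing notes. The RMA steps were taken as they were, since raw intensities were not used. The genome build of the array is not given in the sources used here, and no coordinates are printed.

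The linear model (limma 3.58.1, R 4.3.3; lmFit and eBayes without trend) had a mean for each stage, over all 9 arrays, with 5 residual and 3.65 prior degrees of freedom. P-values of pink minus turning were adjusted by Benjamini-Hochberg over 67795 probe sets, and the fit was tested on simulated data. Probe sets were called at an adjusted p under 0.05 and fold over 2, and list members at an adjusted p under 0.05, with the probe set of highest mean signal for each gene. RefSeq genes matched 23164 of 23194 probe sets with 1 symbol, and 170 probe sets had several symbols and 44431 none. Descriptions came from the study's supplement for 70 probe sets.

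Named genes were the 15 largest rises and falls among calls without overlap, the same with a lower mean of 3 or more, up to 4 members per list and direction by adjusted p, and genes well known in ripening. ACS4, RIN and the WRKY22-like factor were not matched. Members and lists were chosen with earlier results of these data known, 4 wrong list matches were removed, and several lists were added after the annotation was read.

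Alternatives were a replicate block, each array left out, only the 4 arrays, median centring, quantile and cyclic loess normalization, filters on dim probe sets, array weights, robust moderation with an intensity trend (statmod 1.5.0), no fold threshold, the study's thresholds, an unpooled test and gene means. Promoter motifs were not searched because no promoter sequences were at hand.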

Additional observations from a re-analysis of the deposited data

How the results depend on the processing

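Against 759 probe sets higher and 361 lower at pink, the settings that moved a count by over 1.5 times were array weights (192 and 46), only the 4 pink and turning arrays (58 and 20), no fold threshold (593 lower), the study's thresholds in the same fit (1281 and 680) and an unpooled test that used each probe set's pink and turning values alone (0 and 0 after adjustment, with 2069 higher and 2082 lower at an unadjusted p under 0.05). Leaving out 1 array gave 510 to 1550 higher and 227 to 1195 lower, 55 to 122 genes higher and 26 to 36 lower in both this and red ripe against breaker, 85.5% to 93.7% of rises with turning below both outer stages, and 62.8% to 80.8% of falls with pink below both. The number higher in both was 52 after cyclic loess normalization and 35 with array weights, and the number lower in both 8 with array weights. With the replicate number as a replicate block 555 were higher and 248 lower. The deviations of same-numbered pink and turning arrays correlated with r = 0.07. This rests on 1 replicate difference per stage and cannot decide whether same-numbered arrays were handled together. Of 89 named genes past the test, 54 held without each single array, 63 with the replicate block, 35 with array weights, 32 with only the 4 arrays and 26 in every pooled setting; no named gene changed sign, and no called probe set was called in the other direction. For called probe sets, leaving out 1 array, array weights or only the 4 arrays could not have reversed a direction. The 2 arrays per stage and a signal under 3 on 79.1% to 81.0% of probe sets per pink or turning array limit what can be detected.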
